A study of Mus musculus with 18 samples.

Results

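The genes described here are the components of the NF-kB pathway and a set of inflammatory mediators in GC1spg cells, an immortalised mouse line derived from spermatogonia. They comprise 36 genes named by symbol, all of which were found among the 31643 genes of the deposited table: 5 NF-kB subunits, 4 IkB proteins, 3 IkB kinase subunits, 6 TNF receptor, TRAF and TNFAIP genes, 9 chemokines, 4 colony-stimulating factor and interleukin pathway genes, and 5 adhesion, cyclooxygenase and lipocalin genes. Poly(A) RNA was sequenced from cells labelled sigfp (siGFP here, the control) or siTGR5, names that by convention stand for small interfering RNAs (siRNAs) against GFP and against TGR5, the bile acid receptor encoded by Gpbar1. Each was exposed to the vehicle DMSO or to the alkylating chemotherapy drug busulfan (Bu), which gave 5 siGFP DMSO, 4 siGFP Bu, 5 siTGR5 DMSO and 4 siTGR5 Bu libraries. All 4 groups were of the same cell line. The labels give neither the dose nor the duration of Bu, nor the siRNA sequences, nor whether replicates were separate cultures. The p-values therefore measure the spread between these libraries, which may be technical.

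NF-kB is a family of dimeric transcription factors that inhibitory IkB proteins retain in the cytoplasm. Signals from TNF receptors, Toll-like receptors or DNA damage act through TRAF adaptors on the IkB kinase complex, which marks IkB proteins for degradation and lets the dimers enter the nucleus. There they bind kappaB sites in the promoters of chemokine, cytokine and adhesion molecule genes, and also of their own inhibitors, so that the pathway restrains itself. In the testis, germ cells, Sertoli cells and macrophages all use it, and it is known for its part in germ cell survival.

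Library totals ran from 24745523 to 49638166 counts (lowest and highest of the 18 libraries). Gpbar1, the targeted gene, was rare: CPM (counts scaled to library size by TMM, as CPM from edgeR) were 0.861, 0.446, 0.824, 0.780 and 0.581 in siGFP DMSO libraries 1 to 5 and 0.489, 0.447, 0.361, 0.362 and 0.112 in siTGR5 DMSO libraries 1 to 5. With Bu they were 0.210, 0.565, 0.624 and 0.463 in siGFP libraries and 0.388, 0.288, 0.404 and 0.314 in siTGR5 libraries. The groups overlapped in each pair, with log2 differences of -0.99 ± 0.28 (SE, edgeR adjusted p = 0.0135) in DMSO and -0.38 ± 0.34 (adjusted p = 0.425) in Bu. In DMSO, Gpbar1 met the filter on low counts only through the siGFP libraries, as siTGR5 DMSO library 5 had 4 counts. Its difference passed the test in DMSO and did not pass it in Bu. The DMSO difference had log2 -0.97 and edgeR adjusted p = 0.0692 when 7 libraries with transcripts of rod photoreceptors were left out. Those 7 libraries (siGFP DMSO 1 and 5, siGFP Bu 2 and 4, siTGR5 DMSO 4, siTGR5 Bu 1 and 3) held 7.34 to 111 CPM of 19 summed rod markers against 1.41 to 2.44 CPM in the other 11. Leaving them out left 3 siGFP DMSO, 2 siGFP Bu, 4 siTGR5 DMSO and 2 siTGR5 Bu libraries. Of the cell identity markers, 14 genes of differentiating and pan-germ cells summed to 0.930 to 1.73 CPM with 0 of 14 at a median over 1 CPM, and the germ cell genes Ddx4 and Dazl were at medians of 0.0346 and 0 CPM. Of 14 markers of undifferentiated spermatogonia, 11 were in the table and 4 had a median over 1 CPM, among them Gfra1 at 23.7 CPM and Id4 at 5.38 CPM, while Zbtb16 was at 0. Markers of fibroblasts and peritubular cells summed to 4563 to 5968 CPM.

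The members spanned a wide range of levels. Levels are compared between genes here as the authors' normalized count per kb of median transcript length. The order depends on these lengths, which were 697 bases for Ptgs1, 692.5 for Tnfrsf1a and 796 for Chuk against 3129.5 for Nfkb2. By mean CPM in siGFP DMSO libraries, without division by length, Nfkb2 (263) exceeded Chuk (132). On the per kb scale Ptgs1, the constitutive cyclooxygenase, was the highest member, with a median level of 15740 per kb in the siGFP DMSO libraries (15242 to 16354). Tnfrsf1a, the main receptor for TNF, followed at 10904 (10766 to 11033), then the kinase subunit gene Chuk at 5465 (5114 to 6090). The NF-kB subunit genes Nfkb2 and Rela stood at 2849 and 2613 per kb, and their ranges overlapped. Among the remaining subunits Nfkb1 had 984, Relb 539 and Rel 129.7 per kb. Of the 35 neighbouring pairs in the order of levels, 17 had ranges that overlapped in the siGFP DMSO libraries, many of them among the members with low levels.

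**Figure D1:**
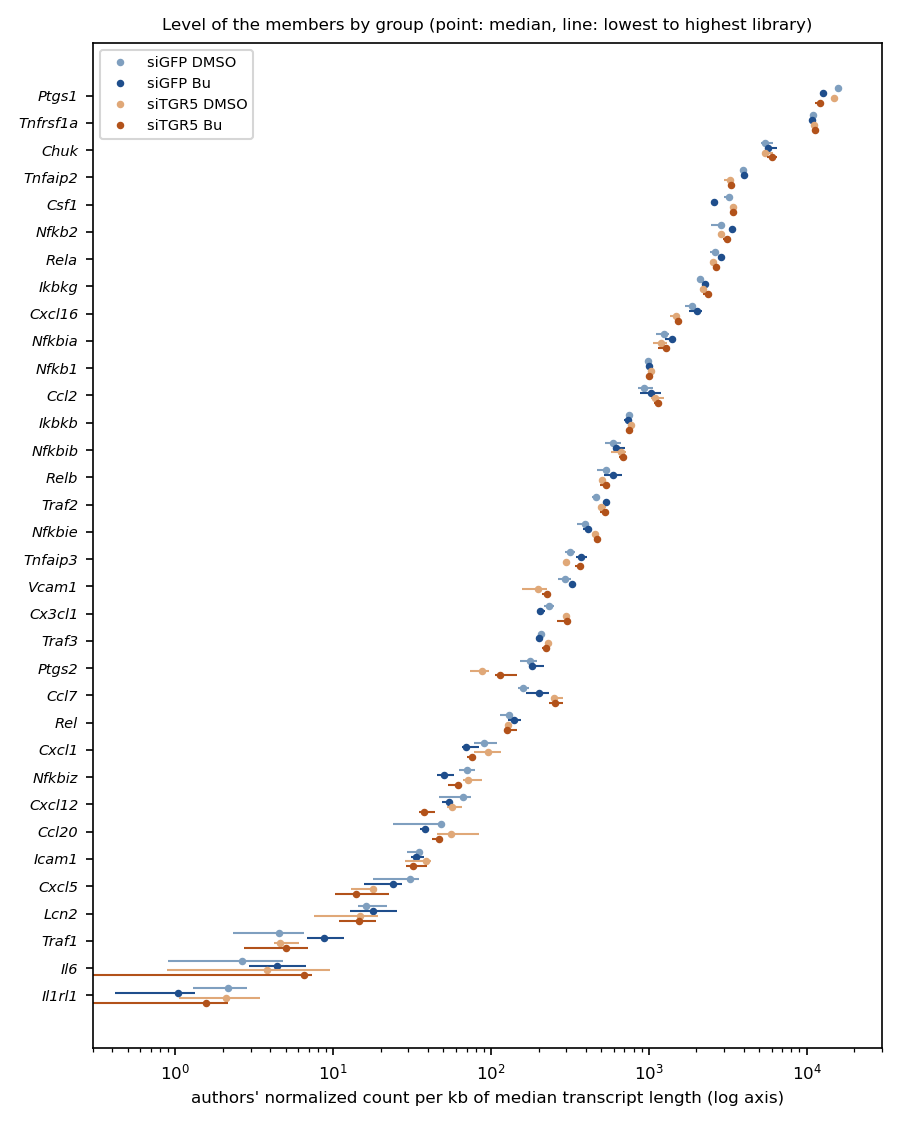
Level of each member per kb of transcript (authors' normalized count per kb, log axis) in the 4 groups; points are group medians, lines run from the lowest to the highest library, and lines that reach a library at 0 stop at the left edge. Ptgs1 lies at the top and Il1rl1 at the bottom; Csf2 and Cxcl2, with a siGFP DMSO library at 0, are not drawn.

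At the limit of detection were 4 inflammatory genes. Cxcl2, a neutrophil chemokine, had 1 count in all 18 libraries together, in siGFP DMSO library 1, so 17 libraries were at 0. Csf2, the granulocyte-macrophage growth factor, had 0 to 2 counts per library, and Il6 and Il1rl1 (the IL-33 receptor) had 0 to 11 each. These 4 did not pass the filter on low counts and were not tested in any comparison. Whether they differed between the groups was therefore not examined.

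Of the 36 members, 27 had a promoter window among the RefSeq sequences (GRCm38.p6, from 250 bases before to 50 after the transcription start). The kappaB consensus, searched on both strands, was found in 11 of these 27 (40.7%) against 5.14% of the 27025 genes with a window: Nfkb2, Rel, Nfkbia, Nfkbie, Tnfaip3, Traf3, Cxcl1, Cxcl2, Ccl20, Csf1 and Il6. The AP-1 motif TGANTCA, also on both strands, was in 5 of 27 (18.5%, against 8.97%) and the TATA box TATAAA in 4 of 27 (14.8%, against 15.7%). Genes with several windows were counted once when any window matched. The motifs were counted separately whether or not they overlapped, and kappaB matches on opposite strands overlap in Nfkb2, Rel, Cxcl1 and Cxcl2. A match describes the letters and was not tested as a binding site. The members were named as genes of the NF-kB pathway, some of them known targets, so their share beside that of all genes is not a test. The 250 bases before the start are shown for 5 members with a match whose transcripts differed between Bu and DMSO, Nfkb2, Nfkbia and Tnfaip3 having risen and Csf1 and Cxcl1 having fallen in siGFP cells. Rela, Ikbkg, Traf1, Traf2 and Ptgs1, also called with Bu in siGFP cells, had windows without a match and are not shown. Capitals mark the kappaB matches, and the sequence is given in the direction of transcription. Nfkb2 and Tnfaip3 are shown for the first of their windows, and the other window of Tnfaip3 had no match.
Nfkb2, chr19:46304487-46304736, plus strand: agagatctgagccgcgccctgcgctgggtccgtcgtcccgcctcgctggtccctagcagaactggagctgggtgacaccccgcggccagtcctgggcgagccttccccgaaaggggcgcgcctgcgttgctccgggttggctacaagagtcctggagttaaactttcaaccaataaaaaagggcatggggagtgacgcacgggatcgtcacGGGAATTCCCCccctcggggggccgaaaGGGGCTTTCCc
Nfkbia, chr12:55492648-55492897, minus strand: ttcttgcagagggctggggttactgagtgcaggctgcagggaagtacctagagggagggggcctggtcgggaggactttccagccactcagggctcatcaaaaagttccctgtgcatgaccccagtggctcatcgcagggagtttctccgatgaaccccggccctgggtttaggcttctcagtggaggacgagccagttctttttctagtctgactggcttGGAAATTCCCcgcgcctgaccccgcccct
Tnfaip3, chr10:19015411-19015660, minus strand: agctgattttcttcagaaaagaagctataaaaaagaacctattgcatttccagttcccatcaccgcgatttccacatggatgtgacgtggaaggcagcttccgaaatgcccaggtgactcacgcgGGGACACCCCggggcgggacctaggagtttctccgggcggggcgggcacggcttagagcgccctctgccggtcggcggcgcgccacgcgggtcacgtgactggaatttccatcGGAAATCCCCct
Csf1, chr3:107760470-107760719, minus strand: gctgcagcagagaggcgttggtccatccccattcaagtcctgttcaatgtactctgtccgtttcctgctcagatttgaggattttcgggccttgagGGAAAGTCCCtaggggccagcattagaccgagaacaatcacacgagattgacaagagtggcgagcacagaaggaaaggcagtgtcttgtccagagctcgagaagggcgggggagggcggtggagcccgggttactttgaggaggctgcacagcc
Cxcl1, chr5:90890995-90891244, plus strand: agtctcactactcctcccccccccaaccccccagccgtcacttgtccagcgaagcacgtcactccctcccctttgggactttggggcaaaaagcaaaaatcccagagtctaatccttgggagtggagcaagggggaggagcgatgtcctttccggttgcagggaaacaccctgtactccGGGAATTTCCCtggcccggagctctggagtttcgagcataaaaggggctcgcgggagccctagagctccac

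The first question was how Bu moved these genes in control cells. In siGFP cells Bu raised 8 of the 32 members tested and lowered 4. Traf1 passed the filter on low counts only through the Bu libraries, and without it 7 of 31 rose and 4 fell (35.5% called). The genes that rose were mostly components and inhibitors of the pathway (Nfkb2, Rela, Nfkbia, Ikbkg, Tnfaip3, Traf1 and Traf2) with a single chemokine, Ccl7, while those that fell were the atypical IkB gene Nfkbiz and the mediators Cxcl1, Csf1 and Ptgs1. The 12 members called (edgeR quasi-likelihood test, Benjamini-Hochberg adjusted p under 0.05) made up 37.5% of those tested, against 28.1% of all 14304 genes tested, of which 14.3% were higher and 13.8% lower. The groups did not overlap in 9 of 32 members, against 23.6% of all genes tested. Traf1 was among these 9, although it had passed the filter only through the Bu libraries. The median log2 fold change was 0.10 over the members and 0.003 over all genes. Without siGFP Bu library 3, or without the rod transcript libraries, 5 members rose. In bulk RNA, fewer cells of a type and less RNA per cell cannot be told apart.

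In siTGR5 cells Bu raised 5 of 32 members and lowered 4, or 28.1% called against 30.7% of 14372 genes tested (15.5% higher, 15.2% lower), a share near the background. Nfkb2, Rela, Ikbkg and Tnfaip3 rose and Nfkbiz, Cxcl1 and Ptgs1 fell, as in siGFP cells. Ptgs2, the inducible cyclooxygenase, rose and Cxcl12 fell. Here 7 of 32 members had groups without overlap, against 24.9% of all genes tested. Without siTGR5 DMSO library 4 or siTGR5 Bu library 3 the members that rose were 3, and without the rod transcript libraries 2 rose and 2 fell. The Bu comparisons use separate libraries in the siGFP and siTGR5 cells.

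**Figure D2:**
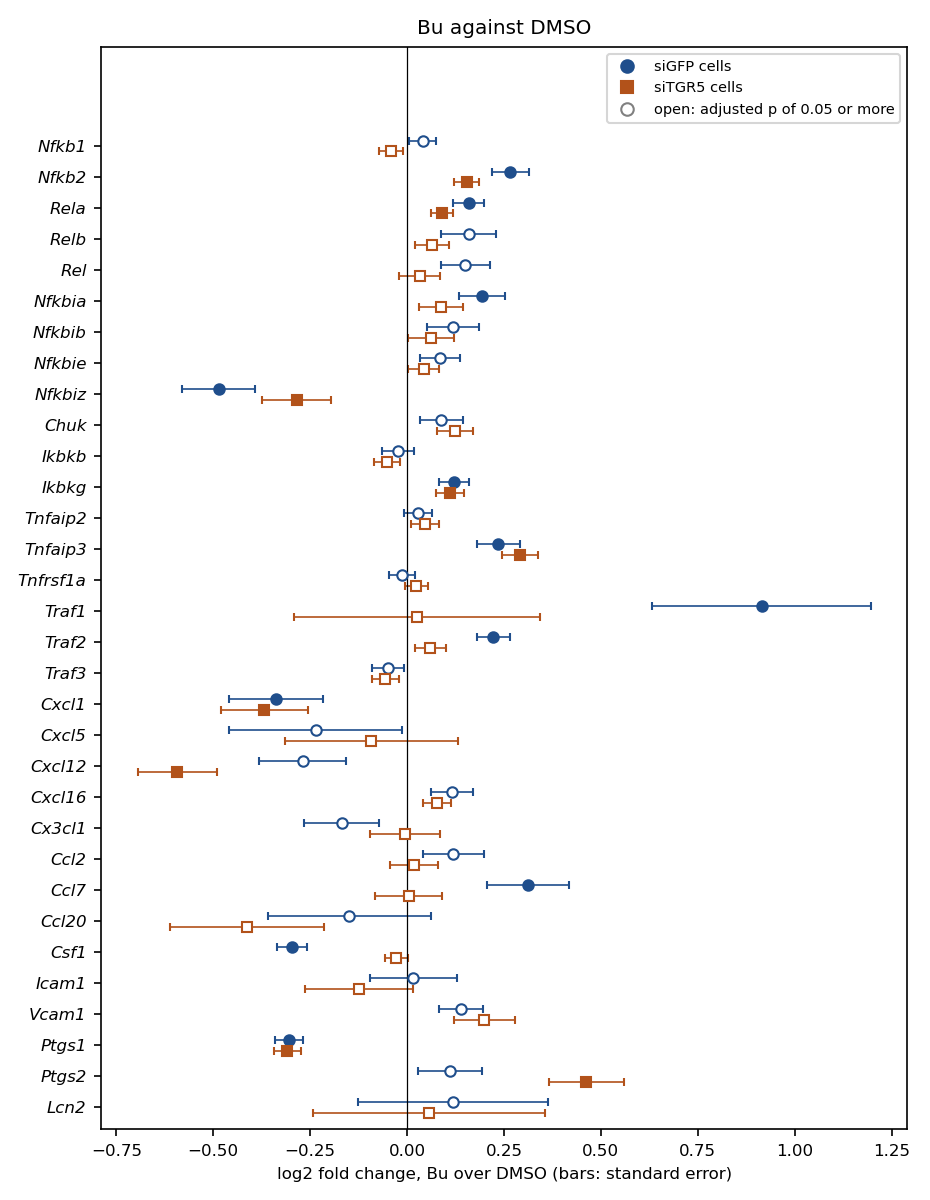
Log2 fold change of Bu over DMSO (horizontal axis, bars are standard errors) for the 32 tested members in siGFP cells (circles) and siTGR5 cells (squares); filled symbols passed the test. The filled symbols of Nfkb2 (0.27 and 0.15) lie right of 0 and those of Nfkbiz (-0.49 and -0.29) left of it.

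Among the NF-kB subunits, Bu raised Nfkb2 and Rela in both cell groups. Nfkb2 encodes the precursor of a DNA-binding subunit of the non-canonical arm. Nfkb2 stood at 268, 281, 264, 267 and 233 CPM in siGFP DMSO libraries and 309, 327, 320.3 and 302 CPM in siGFP Bu libraries. In siTGR5 cells Nfkb2 went from 258, 267, 271, 269.7 and 258 CPM with DMSO to 309, 290.5, 298 and 278 CPM with Bu. The lowest Bu library exceeded the highest DMSO library in both, with siGFP DMSO library 5 the lowest of all 18. The log2 fold change was 0.27 ± 0.05 (SE, edgeR adjusted p = 0.000948) in siGFP cells and 0.15 ± 0.03 (adjusted p = 0.00156) in siTGR5 cells, where the call was lost without the rod transcript libraries (log2 0.11, adjusted p = 0.0782). Exons of Nfkb2 share 299 bases with Psd (13544 counts in all against 178001 for Nfkb2) and 531 bases, 11.6% of the exonic length, with AC114539.1 on the opposite strand, and whether the authors counted by strand is not given in the sources used here, so their reads cannot be told apart.

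Rela, the main transcription-activating subunit of the canonical arm, changed by less. Rela had 212, 216, 212, 213 and 199 CPM in siGFP DMSO and 225, 244, 243 and 224 CPM in siGFP Bu libraries. In the siTGR5 cells Rela had 203, 209, 208, 206 and 199.6 CPM with DMSO and 225, 216, 218 and 212 CPM with Bu. Both pairs of groups were separate. The log2 fold changes were 0.16 ± 0.04 (adjusted p = 0.00825) and 0.09 ± 0.03 (adjusted p = 0.023). The siTGR5 call was not stable: it was lost without siTGR5 DMSO replicate 1, 4 or 5 or siTGR5 Bu replicate 1, 2 or 3 (adjusted p = 0.056 to 0.0681), without a filter on low counts, with all 18 libraries fitted together and without the rod transcript libraries (log2 0.06, adjusted p = 0.303). The other subunits were not called: Nfkb1 differed by 0.04 ± 0.04 and -0.04 ± 0.03, Relb by 0.16 ± 0.07 and 0.06 ± 0.04, and Rel by 0.15 ± 0.06 and 0.03 ± 0.05 (log2, SE) in siGFP and siTGR5 cells.

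Of the 4 IkB genes, Nfkbia rose and Nfkbiz fell with Bu in siGFP cells, and Nfkbiz fell in siTGR5 cells. Nfkbia encodes the classical inhibitor that holds the canonical dimer in the cytoplasm and is itself a target of NF-kB. Nfkbia had 42.8, 39.8, 45.6, 42.2 and 37.7 CPM in siGFP DMSO libraries and 43.2, 50.7, 49.3 and 46.8 CPM in siGFP Bu libraries, and the lowest Bu library lay within the DMSO range. The log2 fold change was 0.19 ± 0.06 (adjusted p = 0.0236), and the call was lost without siGFP DMSO replicate 2 or 5 or siGFP Bu replicate 2 or 3 (adjusted p = 0.0503 to 0.0697), and without the rod transcript libraries (log2 0.12, adjusted p = 0.252). In siTGR5 cells Nfkbia had 36.4, 37.9, 44.5, 40.8 and 41.4 CPM with DMSO and 44.4, 42.9, 44.6 and 38.9 CPM with Bu, overlapping groups that did not pass the test (log2 0.09 ± 0.06, adjusted p = 0.262).

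Nfkbiz, a nuclear IkB protein that assists transcription of a subset of NF-kB targets, fell. Nfkbiz had 6.91, 8.53, 7.79, 7.66 and 8.82 CPM in siGFP DMSO and 5.00, 5.48, 5.69 and 6.45 CPM in siGFP Bu libraries. In siTGR5 cells it had 7.53, 7.34, 7.95, 8.29 and 9.73 CPM with DMSO and 6.75, 6.92, 5.90 and 7.03 CPM with Bu. The Bu libraries were all below the DMSO libraries in each, at 71.4% and 82.1% of the fitted DMSO level. The log2 fold changes were -0.49 ± 0.09 (adjusted p = 0.00148) and -0.29 ± 0.09 (adjusted p = 0.0214), the latter lost without siTGR5 Bu replicate 3 (adjusted p = 0.073) and without the rod transcript libraries (log2 -0.22, adjusted p = 0.24). Nfkbib and Nfkbie, further cytoplasmic inhibitors, did not pass the test with Bu (log2 between 0.04 and 0.12).

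Of the kinase complex, Ikbkg alone was called; it encodes the regulatory subunit NEMO. Ikbkg had 89.0, 91.9, 85.9, 88.2 and 88.2 CPM in siGFP DMSO and 101, 92.6, 96.0 and 94.8 CPM in siGFP Bu libraries, and 94.5, 91.9, 92.0, 88.1 and 94.7 CPM in siTGR5 DMSO and 93.0, 99.0, 101 and 105 CPM in siTGR5 Bu libraries. The siGFP groups were separate by a narrow margin and the siTGR5 groups overlapped. The log2 fold changes were 0.12 ± 0.04 (adjusted p = 0.0268) and 0.11 ± 0.04 (adjusted p = 0.0273). The former was lost without siGFP DMSO replicate 1, 3 or 4 or siGFP Bu replicate 1 or 3 (adjusted p = 0.055 to 0.0847), and without a filter on low counts. The latter was lost without siTGR5 DMSO replicate 2, 3 or 4 or siTGR5 Bu replicate 2, 3 or 4 (adjusted p = 0.0603 to 0.137), and without the rod transcript libraries (log2 0.13, adjusted p = 0.0571). Exons of Ikbkg share 418 bases, 5.15% of its exonic length, with G6pdx on the opposite strand, which had 82281 counts in all against 59514 for Ikbkg. The catalytic subunits Chuk (log2 0.09 ± 0.06 and 0.12 ± 0.05) and Ikbkb (-0.02 ± 0.04 and -0.05 ± 0.03) did not pass the test.

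Tnfaip3, a ubiquitin-editing enzyme that shuts down signalling to the kinase complex and is a classical NF-kB target, rose with Bu in both cell groups. Tnfaip3 had 25.02, 26.0, 22.4, 23.4 and 24.3 CPM in siGFP DMSO and 28.0, 26.6, 28.3 and 30.8 CPM in siGFP Bu libraries. In siTGR5 cells it had 23.8, 22.6, 22.6, 23.5 and 22.4 CPM with DMSO and 29.9, 27.4, 26.1 and 28.5 CPM with Bu. No Bu library reached down to a DMSO library in either. The log2 fold changes were 0.23 ± 0.06 (adjusted p = 0.00553) and 0.29 ± 0.05 (adjusted p = 0.000177), and both calls held under every alternative tried.

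TRAF adaptors link receptors of the TNF family to the kinase complex. Traf2 had 43.1, 42.3, 42.4, 41.0 and 40.1 CPM in siGFP DMSO and 49.8, 50.9, 47.0 and 46.4 CPM in siGFP Bu libraries, and these groups were separate (log2 0.22 ± 0.04, adjusted p = 0.00145). With siTGR5, Traf2 had 44.6, 48.5, 45.4, 45.6 and 44.8 CPM in DMSO and 48.6, 44.5, 48.9 and 48.2 CPM in Bu libraries, which overlapped (log2 0.06 ± 0.04, adjusted p = 0.279). Traf1, itself an NF-kB target, was near the limit of detection, at 0.387, 0.137, 0.256, 0.334 and 0.270 CPM in siGFP DMSO and 0.579, 0.698, 0.404 and 0.463 CPM in siGFP Bu libraries. Over the 18 libraries it had 4 to 22 counts each. It passed the filter on low counts through the Bu libraries, with 4 of 4 over the cutoff against 2 of 5 DMSO libraries, so the lack of overlap and the log2 fold change of 0.91 ± 0.28 (edgeR adjusted p = 0.0249) are given as values only. Without a filter it was 0.92 ± 0.32 (adjusted p = 0.0395). The call was lost without siGFP Bu replicate 1 or 2 (adjusted p = 0.064 to 0.0827), with DESeq2 and without the rod transcript libraries (log2 1.01, adjusted p = 0.114). In siTGR5 cells Traf1 had 0.272, 0.251, 0.361, 0.263 and 0.307 CPM with DMSO and 0.414, 0.397, 0.162 and 0.200 CPM with Bu, which overlapped (log2 0.03 ± 0.32, adjusted p = 0.963). Traf3, Tnfaip2 and Tnfrsf1a were not called with Bu (log2 between -0.06 and 0.05).

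Of 8 chemokines tested with Bu, 1 rose and 1 fell in siGFP cells, and 2 fell in siTGR5 cells. These shares were near the 28.1% and 30.7% of all genes tested that were called. Cxcl1, which draws neutrophils, had 3.42, 3.80, 4.63, 3.31 and 4.11 CPM in siGFP DMSO and 2.998, 3.56, 2.83 and 2.78 CPM in siGFP Bu libraries. With siTGR5, Cxcl1 had 4.89, 3.29, 4.03, 4.04 and 4.32 CPM in DMSO and 3.31, 3.21, 3.19 and 2.999 CPM in Bu libraries. The Bu libraries lay at the low end in each, yet the ranges overlapped in both. Cxcl1 fell, with log2 fold changes of -0.34 ± 0.12 (adjusted p = 0.0493) and -0.37 ± 0.11 (adjusted p = 0.0195). The siGFP call was lost without siGFP DMSO replicate 2, 3 or 5 or siGFP Bu replicate 1, 3 or 4 (adjusted p = 0.0769 to 0.119) and with DESeq2, and the siTGR5 call without siTGR5 Bu replicate 4 (adjusted p = 0.0589). Without the rod transcript libraries, with fewer samples, the fold changes were larger and did not pass (log2 -0.42, adjusted p = 0.0958, and -0.42, adjusted p = 0.0936).

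Cxcl12 is the stromal chemokine that binds Cxcr4. Cxcl12 had 5.96, 4.25, 5.66, 6.12 and 6.72 CPM in siGFP DMSO and 4.68, 4.42, 5.03 and 5.03 CPM in siGFP Bu libraries, which overlapped (log2 -0.27 ± 0.11, adjusted p = 0.0901). In the siTGR5 cells Cxcl12 had 5.05, 5.67, 5.13, 5.92 and 4.71 CPM with DMSO and 3.98, 3.14, 3.56 and 3.23 CPM with Bu. All Bu libraries were below all DMSO libraries there, and Cxcl12 fell to 66.3% of its DMSO level (log2 -0.59 ± 0.10, adjusted p = 0.000292). The difference between these Bu effects did not pass the interaction test (log2 -0.32 ± 0.16, adjusted p = 0.371).

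Ccl7, a monocyte chemokine, had 4.17, 3.84, 3.58, 3.87 and 3.78 CPM in siGFP DMSO and 4.31, 5.32, 5.54 and 4.01 CPM in siGFP Bu libraries. The ranges overlapped through siGFP Bu library 4, and the rise (log2 0.31 ± 0.11, adjusted p = 0.0381) was lost without siGFP DMSO replicate 2, 3, 4 or 5 or siGFP Bu replicate 2 or 3 (adjusted p = 0.0682 to 0.126), with DESeq2 and without the rod transcript libraries (log2 0.38, adjusted p = 0.0747). In siTGR5 cells Ccl7 had 5.79, 6.81, 5.85, 6.74 and 5.997 CPM with DMSO and 6.34, 5.62, 5.90 and 6.88 CPM with Bu (log2 0.00 ± 0.09, adjusted p = 0.98). Ccl2, Ccl20, Cxcl5, Cxcl16 and Cx3cl1 were not called with Bu, with log2 values between -0.41 for Ccl20 in siTGR5 cells and 0.12 for Ccl2 in siGFP cells.

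Of the members, Ptgs1 had the lowest adjusted p with Bu in both cell groups. Ptgs1, the constitutive cyclooxygenase that starts prostaglandin synthesis, had 341, 326, 319, 329.5 and 329 CPM in siGFP DMSO and 269, 272, 262 and 258 CPM in siGFP Bu libraries. With siTGR5, Ptgs1 had 325, 303, 310.5, 318 and 299.6 CPM in DMSO and 261, 253, 253 and 235 CPM in Bu libraries. The groups were far apart in both, with Bu at 81.0% and 80.7% of DMSO. The log2 fold changes were -0.30 ± 0.04 (adjusted p = 2.09e-05) and -0.31 ± 0.03 (adjusted p = 3.53e-06), and they held under every alternative.

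Csf1, the growth factor of macrophages, had 202, 202, 209, 199 and 188 CPM in siGFP DMSO libraries and 159, 158, 168 and 164 CPM in siGFP Bu libraries. All 4 Bu libraries were below all 5 DMSO libraries, at 81.4% of the DMSO level (log2 -0.30 ± 0.04, adjusted p = 6.96e-05). In siTGR5 cells Csf1 had 210.0, 226, 215, 216 and 215 CPM with DMSO and 205, 215, 212 and 214 CPM with Bu. These overlapped and did not pass the test (log2 -0.03 ± 0.03, adjusted p = 0.525).

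Ptgs2, the inducible cyclooxygenase and a classical NF-kB target, had 12.7, 13.4, 12.1, 11.1 and 14.1 CPM in siGFP DMSO and 13.4, 12.6, 12.8 and 15.7 CPM in siGFP Bu libraries, which overlapped (log2 0.11 ± 0.08, adjusted p = 0.348). With siTGR5, Ptgs2 had 6.57, 6.95, 6.19, 5.26 and 6.33 CPM in DMSO and 7.68, 7.82, 10.5 and 8.71 CPM in Bu libraries. There the groups were separate, with Bu higher, and the level rose to 138% (log2 0.46 ± 0.10, adjusted p = 0.00173). Vcam1, Icam1 and Lcn2 were not called with Bu. Vcam1, an adhesion molecule that binds leukocyte integrins, came nearest, with log2 0.14 ± 0.06 (adjusted p = 0.0839) in siGFP and 0.20 ± 0.08 (adjusted p = 0.0653) in siTGR5 cells.

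**Figure D3:**
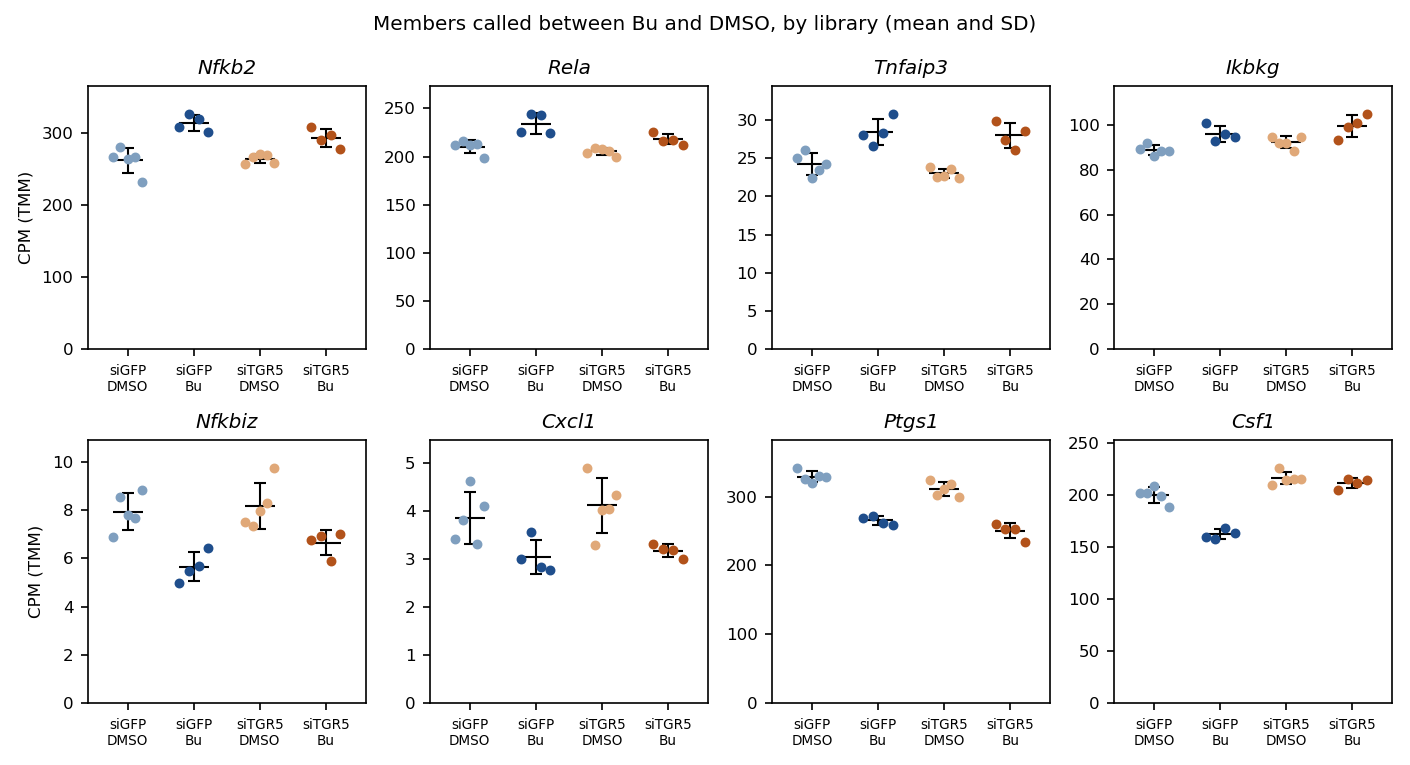
CPM (TMM scaled) of 8 members called between Bu and DMSO, 1 point per library in the 4 groups, with the group mean and SD; the vertical axes start at 0. Csf1 fell to 162 ± 4.83 CPM in siGFP Bu libraries and was at 212 ± 4.66 CPM in siTGR5 Bu libraries.

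Markers of other cells and of RNA composition differed between Bu and DMSO libraries as well. Of 14 leukocyte and macrophage markers, 12 were in the table and 2 had a median over 1 CPM. Their sum was 61.5 to 70.5 CPM in siGFP DMSO and 66.9 to 82.4 CPM in siGFP Bu libraries, and 53.5 to 60.7 and 61.1 to 64.5 CPM in siTGR5 DMSO and Bu libraries. Csf1r and Ptprc, which define macrophages and leukocytes, had medians of 0.0793 and 0.0309 CPM, and most of each sum came from Cd68 and Cd14. The sum of undifferentiated spermatogonia markers was lower with Bu without overlap in both, at 40.4 to 42.3 CPM in siGFP DMSO against 32.1 to 33.4 CPM in siGFP Bu libraries, and 34.4 to 41.0 CPM in siTGR5 DMSO against 30.3 to 34.3 CPM in siTGR5 Bu libraries. Most of this sum came from Gfra1 (median 23.7 CPM), and the markers did not fall as a set. Of 5 tested, 1 was lower and 4 were not called in siGFP cells (median log2 -0.22). In siTGR5 cells 1 was higher, 1 lower and 3 were not called (median log2 0.27). The fibroblast and peritubular sum was 5727 to 5968 CPM in siGFP DMSO and 4563 to 5059 CPM in siGFP Bu libraries, and 4930 to 5201 and 4683 to 5048 CPM in siTGR5 DMSO and Bu libraries. A score of 23 nuclear-retained transcripts (mean log2 of CPM + 0.5) was 6.56 to 6.75 in siGFP DMSO against 6.204 to 6.47 in siGFP Bu libraries, without overlap. In siTGR5 cells it was 6.63 to 7.0004 with DMSO and 6.48 to 6.66 with Bu. The part of these in the results was not tested.

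The second question was how the members differed between siTGR5 and siGFP cells. In DMSO, 7 of 31 members were higher with siTGR5 (Nfkbie, Traf2, Traf3, Cx3cl1, Ccl2, Ccl7 and Csf1) and 5 were lower (Tnfaip2, Cxcl5, Cxcl16, Vcam1 and Ptgs2). The largest difference among them was in Ptgs2, at 49.5% of its siGFP level. The subunits of NF-kB and of the kinase complex did not pass the test, Nfkb1 coming nearest (log2 0.07 ± 0.03, adjusted p = 0.0659). The members called were 38.7%, against 28.3% of 14292 genes tested (13.8% higher, 14.4% lower), and 11 of 31 had groups without overlap, against 18.9% of all genes. Lcn2 passed the filter on low counts only through the siGFP libraries, and without it 7 of 30 were higher and 5 lower (40% called).

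In Bu, 5 of 32 members were higher with siTGR5 (Nfkbie, Traf3, Cx3cl1, Ccl7 and Csf1) and 6 were lower (Nfkbia, Tnfaip2, Cxcl12, Cxcl16, Vcam1 and Ptgs2). That was 34.4% called, against 30.3% of 13971 genes tested (13.8% higher, 16.5% lower), with 11 of 32 members without overlap against 29.8% of all genes. Traf1 and Lcn2 passed the filter on low counts only through the siGFP libraries, and without them 5 of 30 were higher and 6 lower (36.7% called). The members higher in Bu were 3 without siTGR5 Bu library 1 or 4, and 1 without the rod transcript libraries. Median log2 differences over the members were 0.01 in DMSO and -0.03 in Bu, against 0.001 and -0.004 over all genes. The siRNA sequences are not given in the sources used here, and an effect of losing TGR5 and an effect of the siRNA sequence cannot be told apart.

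**Figure D4:**
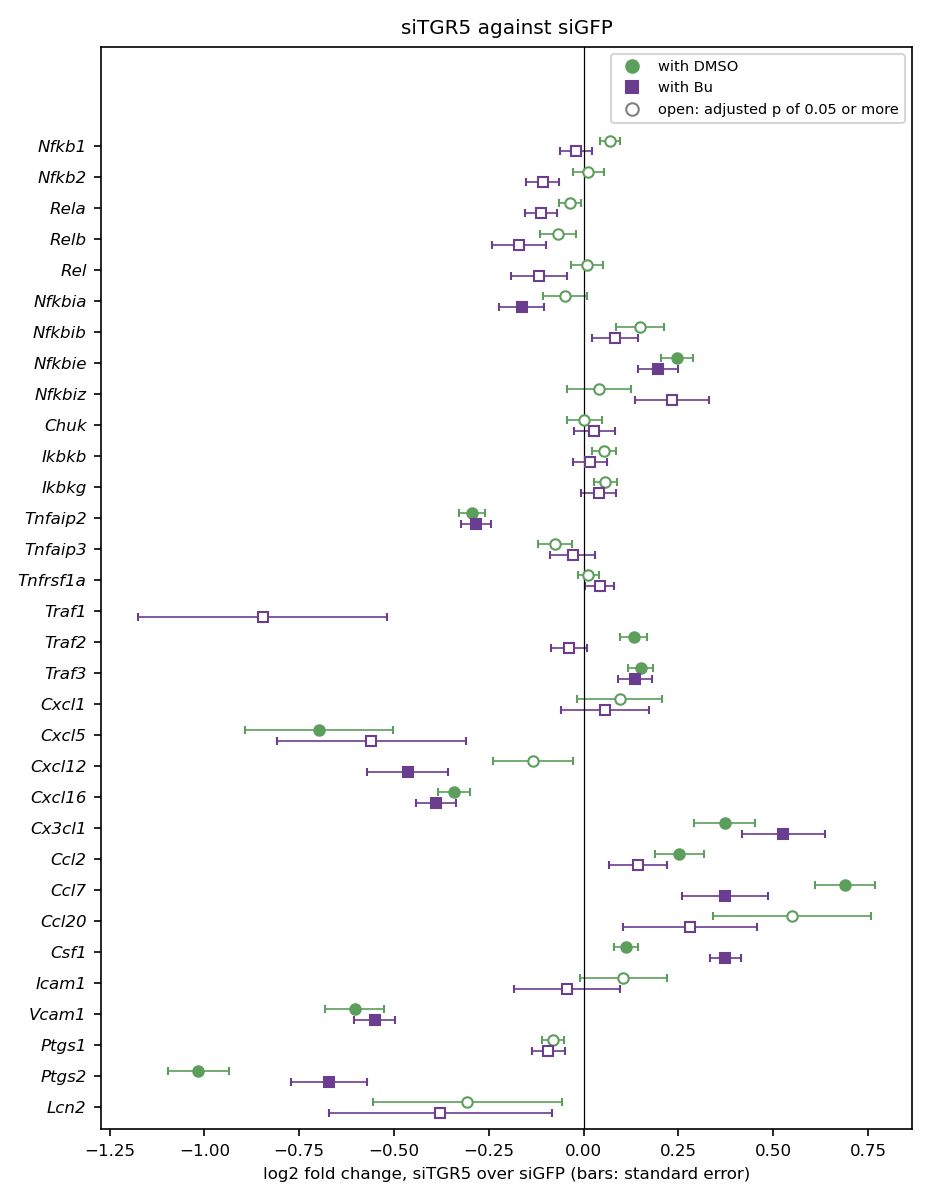
Log2 fold change of siTGR5 over siGFP (horizontal axis, bars are standard errors) for the tested members in DMSO (circles) and in Bu (squares); filled symbols passed the test, and Traf1 was not tested in DMSO. Among the filled symbols Ptgs2 in DMSO lies farthest left at -1.02 and Ccl7 in DMSO farthest right at 0.69.

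Ptgs2 and Vcam1 were below the siGFP level in both treatments. Of the Ptgs2 values given above, each of the 9 siTGR5 libraries (5.26 to 10.5 CPM) lay below each of the 9 siGFP libraries (11.1 to 15.7 CPM). The log2 differences were -1.02 ± 0.08 (adjusted p = 1.37e-07) in DMSO and -0.67 ± 0.10 (adjusted p = 0.000179) in Bu. Vcam1 had 29.0, 26.5, 24.0, 28.8 and 25.7 CPM in siGFP DMSO and 20.2, 17.9, 18.4, 17.6 and 14.03 CPM in siTGR5 DMSO libraries. With Bu, Vcam1 had 30.2, 29.9, 29.1 and 28.6 CPM in siGFP and 21.0, 19.5, 21.3 and 19.1 CPM in siTGR5 libraries. No siTGR5 library reached the siGFP range. Vcam1 was at 65.8% and 68.2% of its siGFP level (log2 -0.60 ± 0.08, adjusted p = 2.56e-05, and -0.55 ± 0.05, adjusted p = 4.92e-06). The Ptgs2 and Vcam1 calls held under every alternative. Icam1, Ptgs1 and Lcn2 did not pass the test between siRNAs.

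The chemokines split by direction. Cxcl16, a membrane-anchored chemokine, had 94.6, 90.6, 97.1, 93.2 and 84.1 CPM in siGFP DMSO and 71.2, 75.4, 74.2, 74.1 and 67.8 CPM in siTGR5 DMSO libraries. With Bu it had 89.5, 109, 100.2 and 99.1 CPM in siGFP and 78.6, 76.5, 76.4 and 73.6 CPM in siTGR5 libraries. All siTGR5 libraries were lower (log2 -0.34 ± 0.04, adjusted p = 1.54e-05, and -0.39 ± 0.05, adjusted p = 7.31e-05), under every alternative. Exons of Cxcl16 share 552 bases, 18.3% of its exonic length, with Zmynd15 on the opposite strand, which had 1567 counts in all against 53812 for Cxcl16.

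Cxcl12, with the values given above, overlapped between siRNAs in DMSO (log2 -0.13 ± 0.10, adjusted p = 0.361) and was lower with siTGR5 in Bu, without overlap (log2 -0.46 ± 0.11, adjusted p = 0.00446). Cxcl5, a neutrophil chemokine whose gene lies near Cxcl1 and Cxcl2 on chromosome 5, had 1.57, 0.925, 0.966, 1.81 and 1.60 CPM in siGFP DMSO and 0.978, 0.921, 0.922, 0.789 and 0.669 CPM in siTGR5 DMSO libraries. The groups overlapped, and siGFP DMSO libraries 2 and 3 lay within the siTGR5 range. The log2 difference was -0.70 ± 0.19 (adjusted p = 0.0127), lost without the rod transcript libraries (log2 -0.51, adjusted p = 0.166). In Bu, Cxcl5 had 1.39, 1.33, 0.807 and 1.14 CPM in siGFP and 1.16, 0.685, 0.525 and 0.743 CPM in siTGR5 libraries and did not pass the test (log2 -0.56 ± 0.25, adjusted p = 0.101).

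Higher with siTGR5 was Cx3cl1, the membrane-bound chemokine fractalkine. Cx3cl1 had 3.48, 3.08, 3.01, 3.23 and 3.32 CPM in siGFP DMSO and 3.99, 4.13, 4.31, 4.41 and 4.13 CPM in siTGR5 DMSO libraries. With Bu it had 2.71, 2.76, 3.05 and 2.99 CPM in siGFP and 4.50, 3.64, 4.12 and 4.31 CPM in siTGR5 libraries. All siTGR5 libraries were above all siGFP libraries, with log2 differences of 0.37 ± 0.08 (adjusted p = 0.0024) and 0.53 ± 0.11 (adjusted p = 0.00228), the latter lost without the rod transcript libraries (log2 0.48, adjusted p = 0.0781).

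Ccl2 and Ccl7 encode related monocyte chemokines and are neighbours on chromosome 11 (mm10, chr11:82035571-82037453 and chr11:82045712-82047525). Ccl7 was higher with siTGR5 without overlap in DMSO, at 161% of the siGFP level (log2 0.69 ± 0.08, adjusted p = 8.55e-06). In Bu the Ccl7 difference was 0.37 ± 0.11 (adjusted p = 0.0213), lost without siGFP Bu replicate 1 or 4 or siTGR5 Bu replicate 1 or 4 (adjusted p = 0.051 to 0.0758) and without the rod transcript libraries (log2 0.36, adjusted p = 0.139). Ccl2 had 28.2, 26.3, 26.6, 30.1 and 24.4 CPM in siGFP DMSO and 29.2, 35.2, 35.8, 31.0 and 29.9 CPM in siTGR5 DMSO libraries, ranges that overlapped at siGFP DMSO library 4 (log2 0.25 ± 0.06, adjusted p = 0.00808). With Bu, Ccl2 had 24.9, 29.6, 34.0 and 29.3 CPM in siGFP and 34.6, 30.6, 32.3 and 32.7 CPM in siTGR5 libraries, which did not pass the test (log2 0.14 ± 0.08, adjusted p = 0.166). Ccl20 and Cxcl1 were not called in either.

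Tnfaip2, a gene induced by TNF, was lower with siTGR5 by nearly the same amount in DMSO and in Bu. Tnfaip2 had 92.9, 88.6, 95.3, 91.0 and 93.1 CPM in siGFP DMSO and 76.1, 77.8, 75.2, 76.6 and 70.4 CPM in siTGR5 DMSO libraries. With Bu it had 93.4, 93.1, 95.3 and 92.8 CPM in siGFP and 78.2, 76.1, 80.4 and 75.2 CPM in siTGR5 libraries. The siGFP and siTGR5 libraries were fully separate (log2 -0.29 ± 0.03, adjusted p = 9.34e-06, and -0.28 ± 0.04, adjusted p = 0.000101), and the calls held under every alternative.

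Traf3, the adaptor that promotes degradation of the non-canonical kinase Map3k14, was slightly higher. Traf3 had 43.5, 42.7, 41.7, 44.5 and 41.6 CPM in siGFP DMSO and 47.9, 46.9, 48.5, 47.3 and 46.9 CPM in siTGR5 DMSO libraries. With Bu, Traf3 had 42.3, 40.0, 40.3 and 42.1 CPM in siGFP and 46.9, 43.7, 45.8 and 45.7 CPM in siTGR5 libraries. Neither pair overlapped (log2 0.15 ± 0.03, adjusted p = 0.00264, and 0.13 ± 0.05, adjusted p = 0.035). The call in Bu was lost without siGFP Bu replicate 2 or 3 or siTGR5 Bu replicate 1, 3 or 4 (adjusted p = 0.0543 to 0.0877), without a filter on low counts and without the rod transcript libraries (log2 0.11, adjusted p = 0.287). Traf2 was higher with siTGR5 in DMSO without overlap (log2 0.13 ± 0.04, adjusted p = 0.0113), a call lost without the rod transcript libraries (log2 0.13, adjusted p = 0.0602), and was not called in Bu (log2 -0.04 ± 0.05, adjusted p = 0.583).

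Nfkbie, a cytoplasmic IkB inhibitor, had 28.2, 28.7, 29.0, 28.4 and 25.4 CPM in siGFP DMSO and 32.1, 33.6, 33.2, 34.0 and 32.6 CPM in siTGR5 DMSO libraries. With Bu, Nfkbie had 29.2, 30.5, 30.6 and 27.7 CPM in siGFP and 35.3, 33.1, 35.1 and 32.4 CPM in siTGR5 libraries. The siTGR5 libraries were above the siGFP libraries in both (log2 0.25 ± 0.04, adjusted p = 0.000349, and 0.20 ± 0.05, adjusted p = 0.011), and the call in Bu was lost without the rod transcript libraries (log2 0.12, adjusted p = 0.249). Nfkbia was lower with siTGR5 in Bu (log2 -0.16 ± 0.06, adjusted p = 0.0458), with overlapping groups. That call was lost without siGFP Bu replicate 2, 3 or 4 or siTGR5 Bu replicate 1, 2, 3 or 4 (adjusted p = 0.051 to 0.161), with DESeq2, with RLE scaling, with a minimum mean of 1 CPM, with all 18 libraries fitted together and without the rod transcript libraries (log2 -0.18, adjusted p = 0.126).

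**Figure D5:**
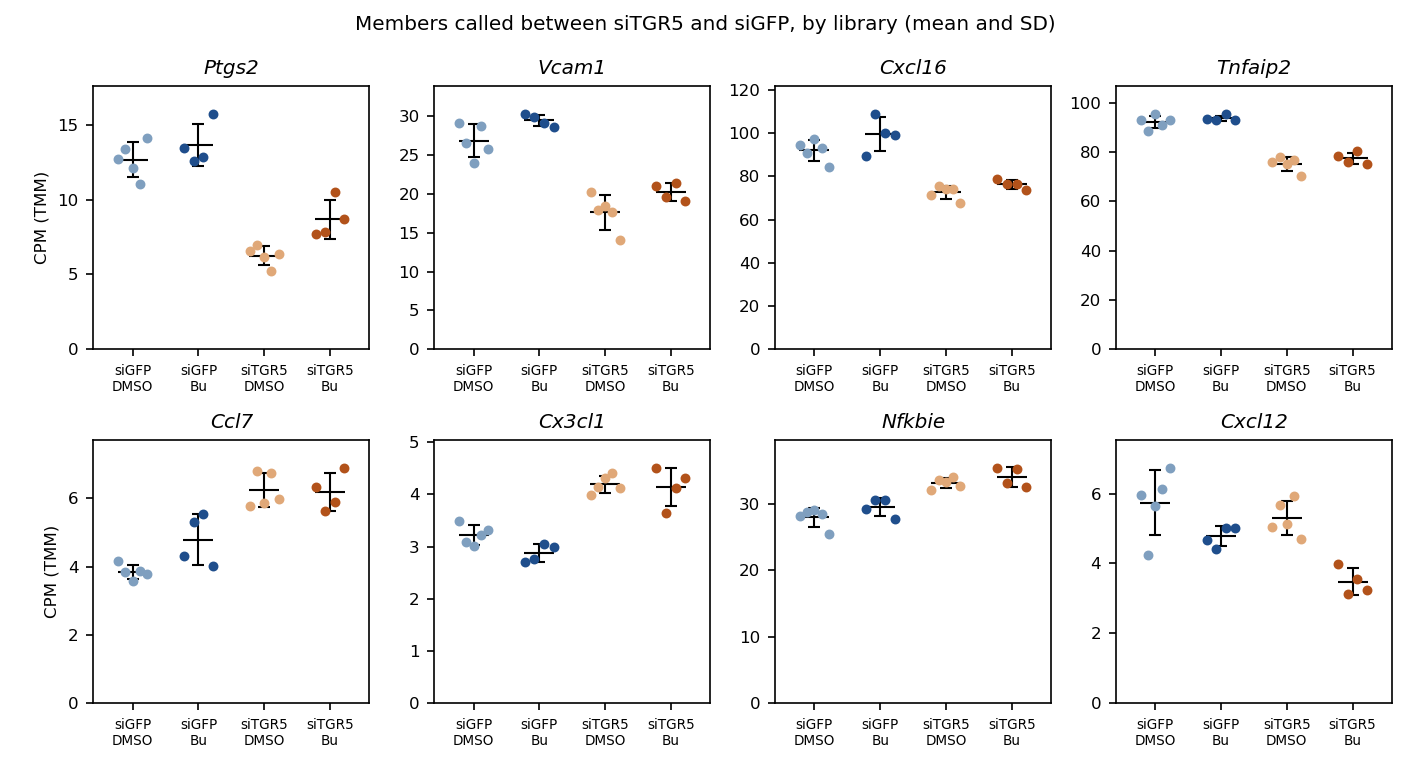
CPM (TMM scaled) of 8 members called between siTGR5 and siGFP cells, 1 point per library in the 4 groups, with the group mean and SD; the vertical axes start at 0. The siTGR5 libraries of Vcam1 (17.6 ± 2.25 CPM with DMSO) and Ptgs2 (6.26 ± 0.630 CPM with DMSO) lie below the siGFP libraries, and those of Cx3cl1 above.

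Beside these differences, the leukocyte marker sum was lower with siTGR5 in both treatments (the ranges given above do not overlap), and the sum of 9 endothelial markers was higher, at 26.9 to 31.9 CPM in siTGR5 against 20.6 to 24.2 CPM in siGFP libraries. Cdh5, Pecam1 and Emcn, which define endothelial cells, had medians of 0.0104, 0.335 and 0 CPM, and the sum was carried by Kdr and Tek. Neither list moved as a set. Of 4 leukocyte markers tested, 1 was higher and 1 lower with siTGR5 in DMSO, and 1 was higher and 2 lower in Bu. Of 4 endothelial markers tested, 1 was higher in DMSO, and 1 was higher and 1 lower in Bu. Fibroblast and peritubular markers summed to 5727 to 5968 CPM in siGFP DMSO and 4930 to 5201 CPM in siTGR5 DMSO libraries. Of 23 nuclear-retained transcripts tested in Bu, 14 were higher with siTGR5, and their score was 6.204 to 6.47 in siGFP Bu against 6.48 to 6.66 in siTGR5 Bu libraries, without overlap. The part of these in the member differences was not tested.

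The last comparison asked whether the effect of Bu differed between siTGR5 and siGFP cells. Csf1 was the single member of 32 that passed this interaction test (3.12%, against 1.37% of 14783 genes tested, 0.724% with a positive and 0.649% with a negative difference). Csf1 fell with Bu in siGFP cells and was nearly level in siTGR5 cells, as its library values above show, and the difference of the effects was log2 0.27 ± 0.05 (adjusted p = 0.00547). It held under all 24 alternatives. Beside it, Csf1 was higher with siTGR5 by log2 0.11 ± 0.03 (adjusted p = 0.0141) in DMSO, without overlap (log2 0.09, adjusted p = 0.104 without the rod transcript libraries), and by 0.37 ± 0.04 (adjusted p = 1.11e-05) in Bu. The Ptgs2 difference was larger but more variable, at log2 0.35 ± 0.13 (adjusted p = 0.229), as were those of Cxcl12 at -0.32 ± 0.16 (adjusted p = 0.371) and Ccl7 at -0.31 ± 0.14 (adjusted p = 0.306), none of which passed. Traf1 differed by log2 -0.89 ± 0.42 (adjusted p = 0.359) on its few counts. The comparisons between siRNAs and between treatments share libraries, so their values are not independent of each other.

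Of the tested members, 10 were called in no comparison: Nfkb1, Relb, Rel, Nfkbib, Chuk, Ikbkb, Tnfrsf1a, Ccl20, Icam1 and Lcn2. Their levels ran from 0.197 CPM for Lcn2 to 235.7 CPM for Tnfrsf1a. Nfkb1, which also encodes the precursor of a DNA-binding subunit, stayed between 79.3 and 86.0 CPM in all 18 libraries, with log2 differences from -0.08 to 0.07. Tnfrsf1a stayed between 216 and 235.7 CPM, with log2 differences from -0.01 to 0.04. Ccl20, a chemokine of dendritic and T cells, had the widest differences of the 10, from -0.41 to 0.55 (lowest adjusted p = 0.0594), on 20 to 99 counts per library. Chuk came nearest to a call with Bu in siTGR5 cells (log2 0.12 ± 0.05, adjusted p = 0.0513).

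Other genes of the pathway, taken from lists chosen by function, went in both directions. The shares called are to be read against the 28.1% and 30.7% of all genes called with Bu in siGFP and siTGR5 cells, and the 28.3% and 30.3% called between siRNAs in DMSO and in Bu. Among 26 tested receptors and adaptors upstream of the kinase complex, Bu raised 4 and lowered 2 in siGFP cells (23.1% called) and raised 3 and lowered 3 in siTGR5 cells (23.1%). This list included the member Tnfrsf1a, which was called in no comparison. Tlr2, a receptor for bacterial lipoproteins, rose by log2 0.39 ± 0.06 (adjusted p = 0.000209) in siGFP cells, and the adaptor Traf4 rose by 0.23 ± 0.04 (adjusted p = 0.000896) and 0.22 ± 0.04 (adjusted p = 0.000371) in siGFP and siTGR5 cells. With siTGR5, 2 were higher and 5 lower in DMSO (26.9%) and 2 were higher and 6 lower in Bu (30.8%). Lower in DMSO were Irak2 (log2 -0.27 ± 0.05, adjusted p = 0.000355) and Tnfrsf11a (-0.38 ± 0.08, adjusted p = 0.00166). Of 20 genes listed as kinases and ubiquitin enzymes, Bu raised 1 and lowered 2 in siGFP cells (15%). In siTGR5 cells it raised 4 and lowered 3 (35%). The list held Nemp1, which encodes a nuclear envelope protein and neither a kinase nor a ubiquitin enzyme. Nemp1 was the gene raised in siGFP cells and was among those raised in siTGR5 cells. With siTGR5, 5 of the 20 were higher and 1 lower in DMSO (30%), and 4 were higher in Bu (20%). Map3k14, the kinase of the non-canonical arm, was higher with siTGR5 in DMSO by 0.24 ± 0.04 (adjusted p = 0.000163) and Ikbke by 0.19 ± 0.04 (adjusted p = 0.00192), while Map3k8 fell with Bu in siGFP cells (log2 -0.37 ± 0.08, adjusted p = 0.00248).

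Of 16 feedback inhibitors beside the members, Bu raised 3 and lowered 2 in siGFP cells (31.2%) and raised 3 and lowered 1 in siTGR5 cells (25%). Tax1bp1, a partner of Tnfaip3, rose by log2 0.19 ± 0.04 (adjusted p = 0.00212) and 0.20 ± 0.03 (adjusted p = 0.000109), and Cyld, a deubiquitinase, by 0.16 ± 0.04 (adjusted p = 0.0108) and 0.20 ± 0.04 (adjusted p = 0.00104). The RNA-degrading enzyme Zc3h12a fell in both (log2 -0.31 ± 0.08, adjusted p = 0.00907, and -0.30 ± 0.08, adjusted p = 0.00809). With siTGR5, 6 were higher and 2 lower in DMSO (50%), and 2 were higher and 3 lower in Bu (31.2%). Lower in DMSO were Tnip3 (log2 -0.71 ± 0.13, adjusted p = 0.000534) and Bcl3 (-0.27 ± 0.05, adjusted p = 0.00115). Of 15 further cytokines and chemokines tested, Bu raised 1 and lowered 2 in siGFP cells (20%) and raised 2 and lowered 4 in siTGR5 cells (40%), and with siTGR5 4 were higher and 3 lower in DMSO (46.7%) and 6 higher and 2 lower in Bu (53.3%). Il33, an alarmin, fell with Bu in siGFP and siTGR5 cells (log2 -0.80 ± 0.09, adjusted p = 2.42e-05, and -0.34 ± 0.07, adjusted p = 0.00132) and was higher with siTGR5 in DMSO by 0.74 ± 0.07 (adjusted p = 1.24e-06), as was Cxcl10 by 0.75 ± 0.09 (adjusted p = 1.44e-05). Il1rn, the interleukin 1 receptor antagonist, fell with Bu in both (log2 -0.49 ± 0.07, adjusted p = 0.000186, and -0.52 ± 0.12, adjusted p = 0.00413).

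Among receptors for the members' ligands 9 were tested, and 1 rose in siGFP cells with Bu (Cxcr4, log2 0.39 ± 0.09, adjusted p = 0.00547), which came nearest to a call in siTGR5 cells (log2 0.25 ± 0.09, adjusted p = 0.0515) and was the 1 lower with siTGR5 in Bu. In DMSO 1 was higher with siTGR5 (Ackr3, a scavenging receptor for Cxcl12, 0.55 ± 0.11, adjusted p = 0.00152). Of the other NF-kB targets, Bu raised 3 and lowered 3 of 15 in siGFP cells (40%) and raised 5 and lowered 2 of 14 in siTGR5 cells (50%). Gadd45b, a stress-induced gene, rose by log2 0.41 ± 0.07 (adjusted p = 0.000434) and 0.57 ± 0.06 (adjusted p = 1.42e-06), and Tgm2, a transglutaminase, fell in both (log2 -0.50 ± 0.07, adjusted p = 0.000102, and -0.36 ± 0.06, adjusted p = 0.000418). With siTGR5, 2 of 15 were higher and 6 lower in DMSO (53.3%), and 3 were higher and 8 lower in Bu (73.3%). In DMSO the collagenase Mmp13 was at -0.79 ± 0.09 (adjusted p = 9.29e-06), the protease Plau at -0.51 ± 0.08 (adjusted p = 0.000206) and Irf1 at 0.23 ± 0.03 (adjusted p = 2.25e-05). Of 12 prostaglandin pathway genes tested beside the cyclooxygenases, Bu lowered 2 in siGFP cells (16.7%) and 1 in siTGR5 cells (8.33%), Ptgis in both (log2 -0.20 ± 0.05, adjusted p = 0.00381, and -0.20 ± 0.05, adjusted p = 0.00324). With siTGR5, 4 were lower in DMSO and 4 in Bu (33.3% each), in DMSO among them Pla2g4a, the phospholipase that frees arachidonic acid for the cyclooxygenases (log2 -0.28 ± 0.04, adjusted p = 2.80e-05), and the receptor gene Ptger3 (-0.61 ± 0.12, adjusted p = 0.00106).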

How the data were processed

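RNA of 18 GC1spg libraries was sequenced by the authors after stranded poly(A) library preparation. The processing notes name bcl2fastq 2.17.1.14, TopHat2, Bowtie2 2.1.0, HTSeq and DESeq2 1.0.19 and the build mm10. The strand setting of the counting is not given in the sources used here. The deposited table holds raw counts per gene, which were used for all tests, and the authors' normalized counts divided by transcript length (a signal per kb), which were used only to compare levels between genes. The authors' own columns of fold changes and p-values were not used, nor were their normalized counts without division by length.

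Counts were tested with edgeR 4.0.16 (quasi-likelihood, TMM, filterByExpr with a minimum count of 10 and a minimum total of 15) in R 4.3.3, each comparison on its own libraries and the interaction on all 18. P-values were adjusted by Benjamini-Hochberg over all genes tested, with a threshold of 0.05. CPM were TMM scaled over all 18 libraries, and values after ± are SD for CPM and SE for log2 fold changes. Alternatives were DESeq2 1.42.0, RLE scaling, other filters, 1 fit of all libraries, a replicate block, leaving out each library and, chosen after seeing the data, leaving out the 7 libraries with over 5 CPM of rod transcripts. Replicate pairs differed by more than counting noise (chi-square per degree of freedom 2.91 to 17.8 over 32 pairs). Each library was counted as 1 sample, although this spread does not show whether the libraries were separate cultures.

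All 36 members were accounted for, those called in any comparison were given in every library, and from each pathway list genes among the 3 with the smallest p in either Bu comparison or in siTGR5 against siGFP with DMSO were named. Members and lists were chosen with earlier results of these data known. Tables and figures were made with Python 3.11.15, pandas 2.3.3 and matplotlib 3.10.9. Promoters were read from RefSeq (GRCm38.p6).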

Additional observations from a re-analysis of the deposited data

Results flagged for a closer look

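In 7 of 128 groups of member values, the most extreme library stood apart from the others of its group, where chance gives about 1 in 20. In siGFP DMSO cells Nfkb1 was at 79.4 CPM in library 2 against 81.2 to 81.8 CPM in the others, and Rel was at 25.7 CPM in library 3 against 28.5 to 29.6 CPM. Library 5 of that group was low for Rela (198.9 CPM against 211.6 to 216.3), for Relb (31.1 CPM against 35.4 to 37.1) and for Nfkbie (25.4 CPM against 28.2 to 29.0). Nfkbib was at 26.6 CPM in siGFP Bu library 2 against 22.6 to 23.1 CPM in the others. Traf2 was at 48.5 CPM in siTGR5 DMSO library 2 against 44.6 to 45.6 CPM.

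The effect of Bu on Csf1 differed between siTGR5 and siGFP cells by 0.27 (log2, 0.2701 before rounding), by the interaction test.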

How the results depend on the processing

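Of the 45 calls of members, 27 were kept under every alternative, 18 were lost under at least 1 and 0 changed direction. Leaving out the 7 libraries with rod transcripts left 3 siGFP DMSO, 2 siGFP Bu, 4 siTGR5 DMSO and 2 siTGR5 Bu libraries, hence fewer samples. Members higher with Bu then numbered 5 in siGFP cells and 2 in siTGR5 cells, where 2 were lower, with 1286 genes higher and 1374 lower. In Bu, 1 member was higher with siTGR5, with 1191 genes higher and 1375 lower, and the interaction counted 29 genes higher and 18 lower. The interaction counts were 175 and 213 with DESeq2 and 247 and 164 without a filter on low counts, against 107 and 96; the cause was not tested.

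Leaving out each library in turn gave 1488 to 2040 genes higher and 1654 to 2069 lower with Bu in siGFP cells (members 5 to 8 and 3 to 4), and 1627 to 2302 and 1751 to 2223 in siTGR5 cells (members 3 to 5 and 3 to 4). For siTGR5 against siGFP it gave 1642 to 2132 and 1757 to 2234 in DMSO (members 7 to 8 and 5 to 6) and 1401 to 1961 and 1724 to 2167 in Bu (members 3 to 5 and 5 to 8). The interaction ranged from 45 to 146 and 38 to 138 genes, with 1 member. The members higher with Bu fell to 5 without siGFP Bu 3, and to 3 without siTGR5 DMSO 4 or siTGR5 Bu 3. Those higher with siTGR5 in Bu fell to 3 without siTGR5 Bu 1 or 4. The interaction counts moved by over 1.5 times without siGFP DMSO 1 or 3, siTGR5 DMSO 1, 3 or 4, or siTGR5 Bu 2, 3 or 4.

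The deviations of same-numbered libraries from their group means correlated weakly (-0.197 to 0.186). The labels do not say whether the numbers pair the samples. These correlations cannot decide it, as differently numbered libraries were not compared. With the replicate block, members higher and lower were 7 and 3 with Bu in siGFP cells (2184 and 2130 genes), 5 and 3 in siTGR5 cells (2045 and 2021), 8 and 6 for siTGR5 in DMSO (2179 and 2314), 5 and 7 in Bu (1928 and 2297), and 1 and 0 for the interaction (138 and 127). The block ended the calls of Traf1, Cxcl1 and Ccl7 in siGFP cells and of Rela and Nfkbiz in siTGR5 cells with Bu (adjusted p = 0.0581 to 0.0842). Depth limits Traf1, Lcn2, Cxcl5, Ccl20 and Gpbar1, with 4 to 99 counts per library, and the 4 untested members.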
